A study of Mus musculus with 4 samples.

Results

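Caspases are cysteine proteases that cut their substrates after aspartate residues, and 7 of their genes were followed here in E0771, a cell line from a mouse mammary carcinoma. They were taken by gene symbol from the annotation of the array's probes: the inflammatory caspases Casp1, Casp4 and Casp12 and the apoptotic caspases Casp2, Casp6, Casp8 and Casp9. These are 7 of the 18372 genes that exceeded a limit set by blank spots on at least 1 array. Cultures were exposed for 6 h or for 24 h to IL-26 at a dose of 30 ng/ml or to a control vehicle. IL-26 is a cytokine and an IL-10 relative. Each of the 4 groups was measured on 1 one-colour array, so that no group has a replicate. According to the study's methods the IL-26 was the recombinant human dimer, given here to mouse cells of a single line, and no group received a further drug.

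Inflammatory caspases are activated on inflammasomes, protein platforms that assemble when sensors in the cytosol meet microbial products or damage. Active caspase-1 matures the cytokines IL-1β and IL-18, and both caspase-1 and mouse caspase-4 (long known as caspase-11) cut gasdermin D, whose fragments open pores in the plasma membrane. Apoptotic initiators are activated on platforms of their own, caspase-8 below death receptors and caspase-9 on the apoptosome, and pass the signal on to executioners, while caspase-2 is activated on a complex of Pidd1 and Cradd. All caspases are made as inactive precursors, so an mRNA level describes the supply of the precursor and not the activity of the enzyme.

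The genes of the 3 inflammatory caspases lie side by side on mouse chromosome 9 with 0 annotated genes between them, whereas Casp2, Casp6, Casp8 and Casp9 lie on chromosomes 6, 3, 1 and 4. All 7 genes had a RefSeq window of 250 bases before an annotated start in the mouse build GRCm38.p6. The windows of the 3 neighbours are shown because these genes share a locus and differed in their course over time. Each is on the + strand, at chr9:5298267-5298516 for Casp1, chr9:5308599-5308848 for Casp4 and chr9:5345226-5345475 for Casp12, and ends at the base before the start. Capitals mark matches to the NF-kB consensus in Casp4 and to the GAS core in Casp12.
Casp1: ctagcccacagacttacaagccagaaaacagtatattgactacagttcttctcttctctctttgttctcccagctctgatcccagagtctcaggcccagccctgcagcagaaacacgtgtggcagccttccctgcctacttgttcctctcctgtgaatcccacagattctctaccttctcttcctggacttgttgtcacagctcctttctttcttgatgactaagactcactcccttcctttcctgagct
Casp4: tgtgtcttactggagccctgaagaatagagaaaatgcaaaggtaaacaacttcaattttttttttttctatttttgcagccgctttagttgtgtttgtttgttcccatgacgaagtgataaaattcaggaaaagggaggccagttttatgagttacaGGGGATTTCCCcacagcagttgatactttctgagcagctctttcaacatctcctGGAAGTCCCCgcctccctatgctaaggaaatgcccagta
Casp12: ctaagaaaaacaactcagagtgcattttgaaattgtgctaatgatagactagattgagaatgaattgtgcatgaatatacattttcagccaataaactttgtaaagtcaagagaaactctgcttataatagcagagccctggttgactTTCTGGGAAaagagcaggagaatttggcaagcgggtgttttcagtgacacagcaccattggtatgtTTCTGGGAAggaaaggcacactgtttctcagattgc

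Both strands of each window were searched for 3 motifs of inflammatory and interferon signalling. The GAS core, the core of the element that STAT factors bind, was TTCNNNGAA, and the ISRE core of interferon-response elements was GAAA, any 2 bases and GAAA again. The Casp4 window held 3 matches to the NF-kB consensus, of which those 93 to 84 and 92 to 83 bases before the start overlap and the third lies 39 to 30 bases before it, with no overlap between different motifs. Casp4 has another annotated start a few bases downstream, from which the same matches lie 104 to 95, 103 to 94 and 50 to 41 bases away. The Casp12 window held 2 matches to the GAS core, 102 to 94 and 36 to 28 bases before the start, with the same letters. None of the 3 motifs was found in the window of Casp1 or in those of the 4 apoptotic caspases. Of 32851 mouse windows of the same length, 7.25% held the NF-kB consensus, 7.02% the GAS core and 2.98% the ISRE core. A match describes these letters and does not show that a factor binds there.

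The arrays carried 23474 gene spots each, and the median gene spot had an intensity of 78.0 to 84.4. The detection limit of an array lay 2 SD over the mean of its 384 blank spots, at 51.8 to 58.1, and 17582 to 17744 genes passed it. Of the negative control spots 32.3% to 52.1% also exceeded it, so values close to the limit carry little information. Of the cell type markers, the mesenchymal Vim had spot intensities of 15519 to 19168 and the epithelial Krt8 of 1436 to 1838. The other 6 epithelial markers stayed near the limit, between 53.9 and 74.3 on all arrays. So did the other mesenchymal markers, Fn1, Col1a1 and Cdh2, between 51.7 and 67.1. The spots of the 7 leukocyte markers detected, of 8 on the array, summed to 821 with IL-26 and 816 with vehicle at 24 h, against 895 with IL-26 and 944 with vehicle at 6 h. Of these, Cd68 had 333 to 421, Lyz2 126 to 184 and Csf1r 106 to 112, well above the limit. Ptprc (55.2 to 60.6), Adgre1 (52.1 to 57.4), Cd3e (54.4 to 57.7) and Ncr1 (58.2 to 65.2) lay near it. Itgam was not detected.

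Each caspase was measured by 1 probe on 1 spot, and all 7 were above the limit on all 4 arrays. The question put to them was which caspases differed between 24 and 6 h, and which with IL-26. For this, intensities were background-corrected, brought to the log2 scale and quantile normalised, and the time effect (24 h minus 6 h, averaged over treatments) and the IL-26 effect (IL-26 minus vehicle, averaged over times) were fitted for all detected genes with limma. A standard error (SE) or interval of this fit rests on 1 residual degree of freedom per gene and mostly on the spread of other genes with a similar signal. That degree of freedom is the IL-26 difference at 24 h less that at 6 h, which the fit counts as error. The p-values below, Benjamini-Hochberg adjusted over all 18372 genes, rest on the spread between these 4 arrays, pooled over genes. Nothing in the labels says that the cultures were separate, so the p-values do not measure variation between independent cultures. Time in culture, IL-26 aside, is the only labelled difference between the 24 h and the 6 h cells, but each time also has its own arrays, and these cannot be told apart.

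**Figure D1:**
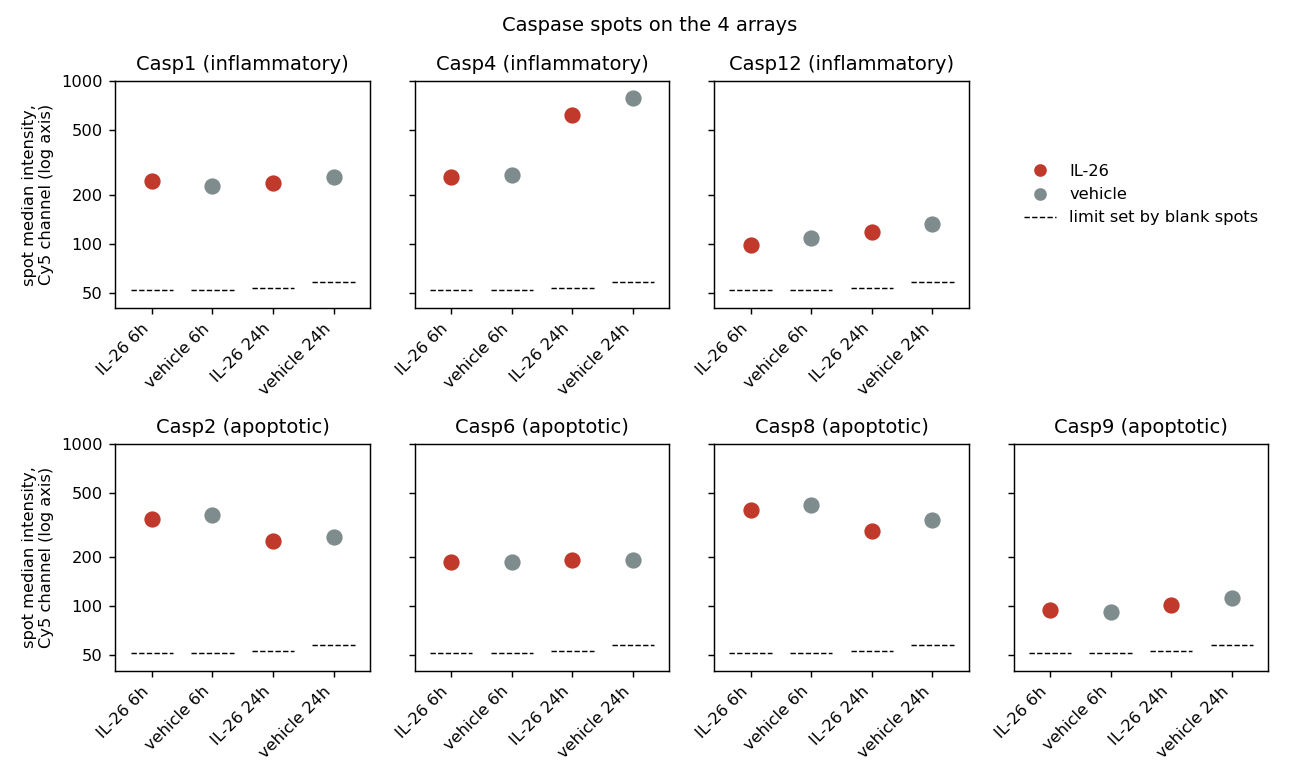
Median intensity of the spot in the Cy5 channel (log axis) of the 7 caspases on each array, with IL-26 in red and vehicle in grey, and the dashed line at the detection limit of that array. The Casp4 spot is at 622 and 789 at 24 h, against 258 and 263 at 6 h, and no other caspase moves as far.

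Time separated the inflammatory caspases. Casp4 rose at 24 h, Casp12 rose by a small amount and Casp1 did not pass the test. Among the apoptotic caspases, Casp2 and Casp8 fell at 24 h, Casp9 rose slightly and Casp6 did not pass. In all, 3 of the 7 caspases were higher at 24 h, where 14.5% of all detected genes were, and 2 of 7 were lower, where 14.4% of all detected genes were. All 7 lie among the 9186 detected genes above the median signal, of which 21.0% were higher and 22.1% lower in the same fit. When arrays were brought together by their medians and not by quantiles, 3865 genes were higher and 2443 lower, against 2660 and 2639 here.

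Casp4, the sensor protease for cytosolic lipopolysaccharide, had spot intensities of 622 with IL-26 and 789 with vehicle at 24 h, against 258 with IL-26 and 263 with vehicle at 6 h. Both 24 h arrays were thus above both 6 h arrays. On the log2 scale the time effect was 1.45 ± 0.10 (SE), with a 95% interval of 1.25 to 1.66 and an adjusted p of 5.56e-19 (limma), a 2.74-fold higher value. The size of this p depends on the fit. It was 0.0111 without a trend of variance on intensity and 4.60e-06 over all genes detected or not (limma, adjusted). The time effect lay at the 99.7th percentile of the time effects of all detected genes. The single differences between arrays were 1.28 with IL-26 (2.43-fold) and 1.63 with vehicle (3.09-fold). Casp4 was the 1 caspase of 7 to pass 2-fold in these comparisons, and was higher at 24 h in each. Of all detected genes 0.8% were at least 2-fold higher with IL-26 and 0.816% with vehicle. At least 2-fold lower were 54 genes with IL-26 and 47 with vehicle. In the processed values that the authors deposited, which carry no added offset, the differences were 1.56 with IL-26 and 1.90 with vehicle.

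Casp12, an inflammatory caspase by sequence that in the mouse is also linked to the endoplasmic reticulum, lay closer to the limit. Its spots had intensities of 119 with IL-26 and 133 with vehicle at 24 h, against 97.6 with IL-26 and 108 with vehicle at 6 h. The time effect was 0.29 ± 0.07 (SE, 95% interval 0.16 to 0.42, limma adjusted p = 0.000439), a 1.22-fold higher value, and the difference was 0.29 with IL-26 and 0.29 with vehicle. The size depends on how dim values are treated. The effect was 0.12 with an offset of 200, 0.45 with an offset of 10 and 0.55 in the authors' processed values, and passed in each.

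Casp1, the protease that gives the inflammasome its output, had spot intensities of 236 with IL-26 and 258 with vehicle at 24 h, against 242 with IL-26 and 225 with vehicle at 6 h. The 24 h and 6 h arrays overlapped. The time effect was 0.07 ± 0.09 (SE), its 95% interval ran from -0.11 to 0.25 and its adjusted p was 0.630 (limma). The difference between the times was -0.05 with IL-26 and 0.19 with vehicle.

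Casp2, the initiator of the Pidd1 and Cradd complex, had spot intensities of 253 with IL-26 and 267 with vehicle at 24 h, against 345 with IL-26 and 367 with vehicle at 6 h. Both 24 h arrays were below both 6 h arrays. The time effect was -0.44 ± 0.09 (SE, 95% interval -0.63 to -0.25, limma adjusted p = 0.000154), a 1.36-fold lower value, and the differences of -0.45 with IL-26 and -0.43 with vehicle were close to each other.

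Casp8, the initiator of the death receptor pathway, which also restrains necroptosis, showed the same direction. Its spots had intensities of 292 with IL-26 and 340 with vehicle at 24 h, against 390 with IL-26 and 423 with vehicle at 6 h, again with no overlap between the times. The time effect was -0.35 ± 0.10 (SE, 95% interval -0.54 to -0.15, limma adjusted p = 0.00468), a 1.27-fold lower value. The difference was -0.41 with IL-26 and -0.28 with vehicle.

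Casp9, the initiator of the apoptosome, had spot intensities of 102 with IL-26 and 112 with vehicle at 24 h, against 95.5 with IL-26 and 92.9 with vehicle at 6 h. The 24 h spots were the higher ones, by little. The time effect was 0.18 ± 0.06 (SE, 95% interval 0.05 to 0.30, limma adjusted p = 0.0240), a 1.13-fold higher value, but the adjusted p was 0.0715 over all genes detected or not, and 0.116 without a trend of variance on intensity. The difference was 0.11 with IL-26, which is what remains without a vehicle array, and 0.25 with vehicle, which is what remains without an IL-26 array. The effect was 0.07 with an offset of 200, 0.30 with an offset of 10 and 0.36 in the authors' processed values.

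Casp6, an executioner that cuts lamin A, had spot intensities of 193 with IL-26 and 194 with vehicle at 24 h, against 186 with IL-26 and 187 with vehicle at 6 h. These are the closest 4 values of any of the 7 caspases in raw intensity. The time effect was 0.05 ± 0.08 (SE), with a 95% interval of -0.12 to 0.21 and an adjusted p of 0.737 (limma).

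The background correction bears on the 5 calls. When the local background around each spot was subtracted in place of the blank spots, 0 genes of the array passed for time (limma, with 1422 at an unadjusted p under 0.05), and the effects were 1.28 for Casp4 (adjusted p = 0.577, limma), 0.23 for Casp12, -0.35 for Casp2, -0.06 for Casp8 and -0.00083 for Casp9. That of Casp1 was 0.77 ± 0.36 (SE, adjusted p = 0.658), outside the interval given above, and that of Casp6 was 0.01. The local background of the Casp4 spot was 70.8 with IL-26 and 328 with vehicle at 24 h, against 84.0 with IL-26 and 55.0 with vehicle at 6 h. For Casp1 it was 91.2 with IL-26 and 172 with vehicle at 24 h, against 92.4 with IL-26 and 218 with vehicle at 6 h, the last close to the spot itself. The part of these backgrounds in the spot values was not tested.

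**Figure D2:**
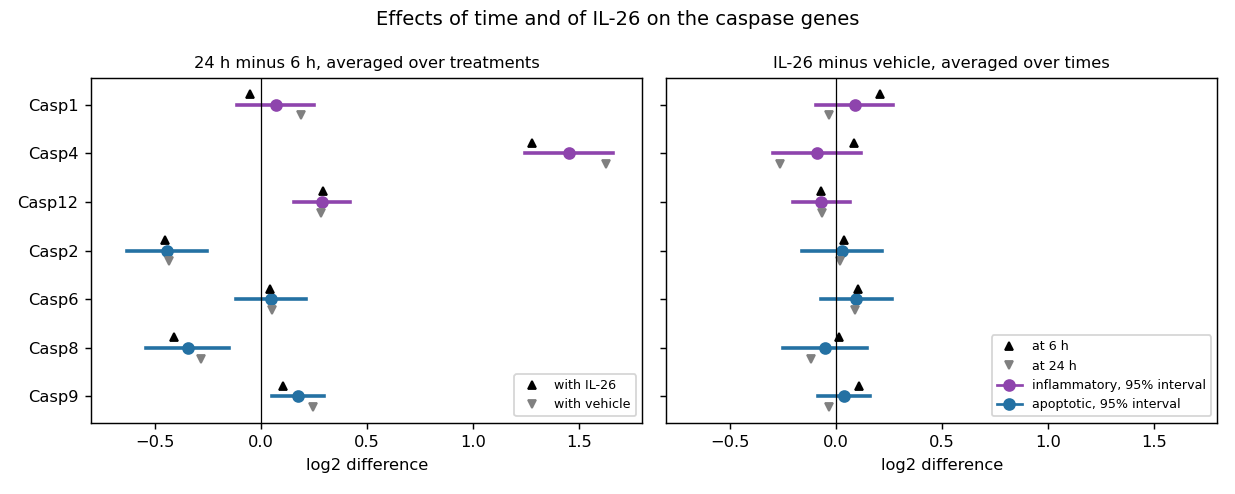
Fitted log2 effects of time (left) and IL-26 (right) on each caspase, as dots with 95% intervals, with the single differences between arrays as triangles. The Casp4 time effect of 1.45 stands apart, Casp2 and Casp8 lie below 0 at -0.44 and -0.35, and every IL-26 interval includes 0.

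Set against each other, the 3 inflammatory caspases had a median time effect of 0.29, with 2 higher and 0 lower, and the 4 apoptotic caspases a median of -0.15, with 1 higher and 2 lower. With 3 genes, the inflammatory median of this fit is the value of Casp12, so its size does not reflect that of Casp4. The median over all detected genes was -0.0042. The inflammatory minus the apoptotic median was 0.48 with IL-26 and 0.40 with vehicle. Its size depends on the processing, at 0.25 and 0.21 with an offset of 200, 0.72 and 0.59 in the authors' processed values, and 0.20 and 1.27 with the local background subtracted, but it stayed above 0 in each. This describes 7 genes, and the sets overlap, because Casp9 on the apoptotic side rose and Casp1 on the inflammatory side did not pass. Casp4 is also the gene that sets the range of its group, since Casp1 and Casp12 differ from each other by less than either differs from Casp4.

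**Figure D3:**
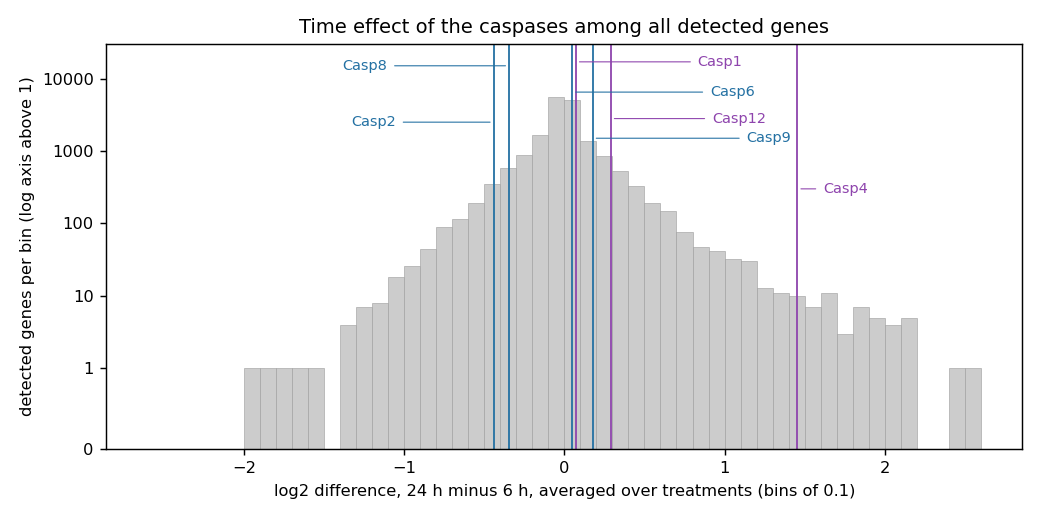
Number of detected genes (log axis above 1) by time effect in bins of 0.1 log2, the end bins holding any value beyond them, with a line for each caspase, inflammatory in purple and apoptotic in blue. Casp4 at 1.45 lies in the right tail, while the other 6 lie between -0.44 and 0.29.

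Over the 4 arrays, the genes most like Casp4 among those above the median signal were Ifi203, an interferon-inducible gene of the HIN-200 family, Cxcl10, an interferon-induced chemokine, and Slc2a6, a glucose transporter. Likeness was the Euclidean distance of log2 values centred on each gene's mean, which was 0.11, 0.12 and 0.13 over the 4 arrays. Their time effects were 1.42 ± 0.08, 1.47 ± 0.11 and 1.37 ± 0.08 (SE). With 4 arrays, of which the time separates 2 from 2, such likeness amounts to a similar step between the times.

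IL-26 gave no caspase call. None of the 7 caspases passed for IL-26, where 0.49% of all detected genes did in either direction, and the smallest unadjusted p among the 7 was 0.249 (limma). Of the 9186 detected genes above the median signal, 0 were higher and 15 lower with IL-26 in the same fit. The IL-26 effects lay between -0.09 ± 0.10 for Casp4 and 0.10 ± 0.08 for Casp6 (SE), with an adjusted p of 0.999 each. The widest bounds of the 7 intervals were -0.30 and 0.27, both log2. These bounds hold for the correction from the blank spots alone. With the local background subtracted, the IL-26 effects were 0.77 for Casp1, -0.53 for Casp4, -0.64 for Casp12, -0.40 for Casp2, -0.51 for Casp6, -0.78 for Casp8 and -0.34 for Casp9, with adjusted p-values of 0.205 to 0.447 (limma). All but that of Casp1 were then negative, and none passed.

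Single differences between arrays reached further than the averaged effects. At 6 h, IL-26 minus vehicle was 0.21 for Casp1, 0.08 for Casp4 and -0.07 for Casp12, and lay between 0.01 (Casp8) and 0.11 (Casp9) for the apoptotic caspases. At 24 h it was -0.03 for Casp1, -0.26 for Casp4 and -0.07 for Casp12, and ran from -0.12 (Casp8) to 0.09 (Casp6) for the apoptotic caspases. At 6 h the raw spots of Casp4, Casp2, Casp6 and Casp8 were lower with IL-26, although their normalised differences were above 0. The medians of the inflammatory and the apoptotic caspases were 0.08 and 0.07 at 6 h, and -0.07 and -0.0055 at 24 h. With median scaling the 6 h medians were 0.03 and 0.01, and with the local background subtracted -0.78 and -0.62. The sign at 6 h thus depends on the processing. The SD of IL-26 minus vehicle over all detected genes was 0.10 at each time. Over those above the median signal, where all 7 caspases lie, it was 0.12 at 6 h and 0.13 at 24 h. The 2 largest, Casp1 at 6 h and Casp4 at 24 h, were matched or exceeded in size by 7.79% and 5.28% of the genes above the median signal. In 4 of the 7 caspases the difference had opposite signs at 24 and 6 h, where 52.8% of all detected genes did.

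No gene of the 4 lists around the caspases that follow passed for IL-26. Of 16 listed sensors, adaptors and substrates 14 were detected, of which 2 rose at 24 h, 0 fell and 12 did not pass, with a median time effect of -0.03. Of all detected genes 14.5% were higher and 14.4% lower, so the share of the list that rose was that of the whole array. Naip2, a sensor of bacterial secretion systems, had 250 with IL-26 and 281 with vehicle at 24 h, against 205 with IL-26 and 215 with vehicle at 6 h, an effect of 0.33 ± 0.09 (SE, limma adjusted p = 0.00255). Gsdmd, which encodes gasdermin D, the pore-forming substrate of Casp1 and Casp4, had 189 with IL-26 and 212 with vehicle at 24 h, against 162 with IL-26 and 172 with vehicle at 6 h. Its effect was 0.26 ± 0.08 (SE, limma adjusted p = 0.0120). The sensor Nlrp3 (0.10), the adaptor Pycard (-0.05) and the cytokine genes Il1b (0.00288) and Il18 (-0.18) did not pass, and the Il1b spots of 63.1 to 67.6 were close to the limit. Nek7, a partner of Nlrp3, had the largest IL-26 effect of the list, 0.24 at 6 h and 0.10 at 24 h, which did not pass.

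Of 13 genes of the death receptor and apoptosome platforms 12 were detected, and 4 rose at 24 h, 0 fell and 8 did not pass, with a median time effect of 0.14. The shares over all detected genes were 14.5% higher and 14.4% lower, and over those above the median signal, where 9 of the 12 lie, 21.0% and 22.1%. Bid, the link by which caspase-8 reaches the mitochondria, had 224 with IL-26 and 239 with vehicle at 24 h, against 178 with IL-26 and 181 with vehicle at 6 h, an effect of 0.37 ± 0.09 (SE, limma adjusted p = 0.000436). The death receptor Fas rose by 0.29 ± 0.09, Apaf1, the scaffold of the apoptosome, by 0.23 ± 0.07, and Cflar, the caspase-8 decoy whose spot lies beside a very bright one, by 0.14 ± 0.05 (SE). In this fit Casp8 itself thus fell, while its receptor Fas, its target Bid and its decoy Cflar (limma adjusted p = 0.0409) rose. Other genes of the list, among them Fadd, Tnfrsf1a, Tnfrsf10b and Casp8ap2, did not pass. The Casp8 effect was -0.06 with the local background subtracted, and the contrast between these genes was not tested. Tradd, an adaptor of the TNF receptor, had a time effect of 0.25 that did not pass and the largest IL-26 differences of the list, 0.23 at 6 h and 0.17 at 24 h, which did not pass either.

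Of 7 caspase inhibitors and their antagonists 6 were detected, and only Birc3 passed, where 14.5% of all detected genes were higher. Birc3, which encodes the inhibitor of apoptosis cIAP2, had 101 with IL-26 and 109 with vehicle at 24 h, against 69.0 with IL-26 and 67.5 with vehicle at 6 h, an effect of 0.62 ± 0.05 (SE, limma adjusted p = 1.21e-15). The chromosomal passenger gene Birc5 had a time effect of -0.15 and the largest IL-26 effect of the list, 0.32 at 6 h and -0.03 at 24 h, and the ubiquitin ligase gene Birc6 had a time effect of -0.09. None of these passed.

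The 11 substrates of apoptotic caspases were all detected and split, with 4 higher and 4 lower at 24 h and 3 that did not pass. Of these 11 genes 9 lie above the median signal, where 21.0% of genes were higher and 22.1% lower, against 14.5% and 14.4% of all detected genes. The lamin genes Lmnb1 (-0.41 ± 0.10) and Lmna (-0.38 ± 0.09), the kinase gene Rock1 (-0.33 ± 0.08) and the nuclease gene Dffb (-0.23 ± 0.06) fell (SE). Acin1 (0.34 ± 0.10), a factor of chromatin condensation, the membrane skeleton genes Add1 (0.33 ± 0.08) and Sptan1 (0.27 ± 0.10), and Dffa (0.11 ± 0.04), which encodes the inhibitor of that nuclease, rose (SE). Lmnb1 had spot intensities of 279 with IL-26 and 398 with vehicle at 24 h, against 406 with IL-26 and 495 with vehicle at 6 h. It had the largest IL-26 effect of the list, -0.29 ± 0.10 (SE, limma adjusted p = 0.428), which did not pass. Casp14, a caspase of the skin barrier, was above the limit on 3 arrays and had a time effect of 0.00293.

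**Figure D4:**
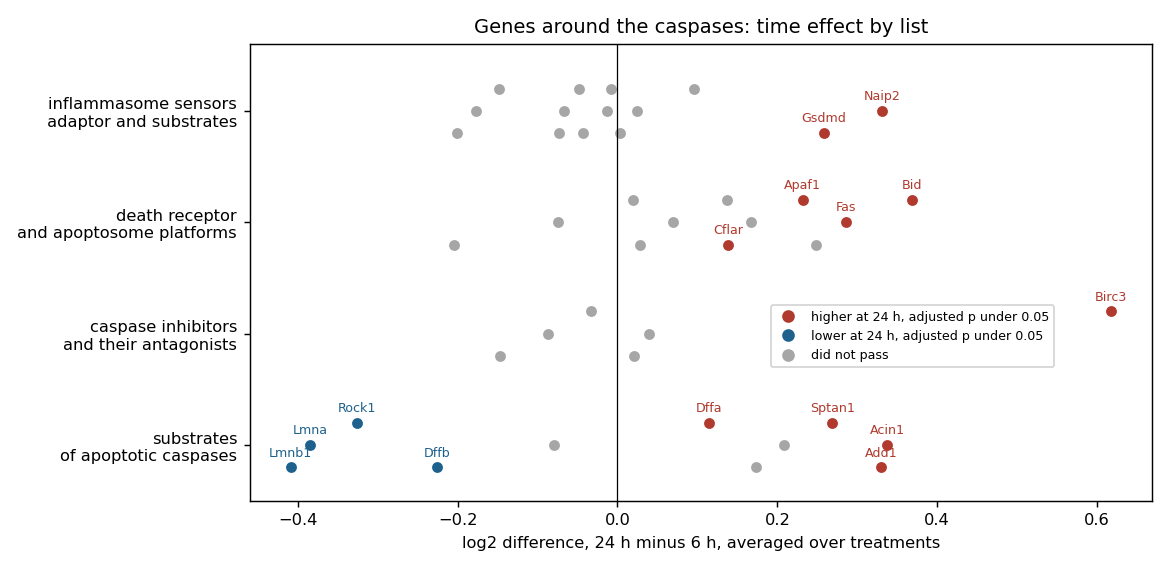
Time effect (log2, 24 h minus 6 h) of each detected gene in 4 lists around the caspases, red where higher and blue where lower at an adjusted p under 0.05, and grey where the test was not passed. The inflammasome and platform lists hold calls only to the right, Birc3 at 0.62 is the farthest, and the substrates lie on both sides.

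Among the cell type markers, none of the 7 detected leukocyte markers was higher at 24 h, where 14.5% of all detected genes were. Of these 7, 1 was lower, where 14.4% of all detected genes were. Lyz2, which encodes lysozyme of macrophages and neutrophils, had 126 with IL-26 and 131 with vehicle at 24 h, against 179 with IL-26 and 184 with vehicle at 6 h. Its effect was -0.51 ± 0.08 (SE, limma adjusted p = 1.70e-07). Whether this bears on Casp4 was not tested. The macrophage marker Cd68 had 367 with IL-26 and 333 with vehicle at 24 h, against 388 with IL-26 and 421 with vehicle at 6 h, and did not pass. The epithelial Krt14 and the endothelial Kdr also fell at 24 h, by 0.09 and 0.19, as 1 of 7 and 1 of 3 detected markers. The Krt14 spots of 59.7 to 65.8 were close to the limit. With vehicle its raw spot was higher at 24 h (65.8) than at 6 h (63.8). In total RNA of a culture, a different number of cells of a type and a different level per cell cannot be told apart.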

How the data were processed

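Total RNA of E0771 cells was amplified, labelled with Cy5 and measured on TORAY 3D-Gene oligo chips for mouse, 1 array for each of 4 groups taken from the treatment label. Per the file headers, the deposited scanner files hold the median spot intensity and local background intensity at 635 nm, combined from 3 scanner gains, with nothing subtracted. The authors also deposited processed intensity values. Checked against the scanner values, these are spots less a constant near the blank mean, scaled to an array median of 25.0.

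Normexp background correction used the blank spots (offset 50), and values were log2 transformed and quantile normalised with limma 3.58.1 in R 4.3.3. This offset shrinks the log2 differences of dim genes. Probes of a gene were averaged. Of 23473 probes 20690 had 1 symbol and 2783 none, leaving 19316 genes, of which 18372 were detected on at least 1 array. An additive model of time and treatment was fitted by lmFit and eBayes with a trend, with Benjamini-Hochberg adjustment and calls at 0.05. The fit was tested on simulated data.

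Alternatives were median scaling, offsets of 200 and 10, local background, the authors' values, other gene filters, no variance trend, the brightest probe, exclusion of spots beside spots above 10000, time alone in the model, and each array left out. The caspases and gene lists were chosen with earlier results of these data known. Genes named from the lists are, by rule, the 3 with the largest time effect and the 1 with the largest IL-26 effect, plus Il1b, Il18, Gsdmd, Pycard and Nlrp3, the other calls being named after their values were seen. Probe sequences were not used, so hybridisation of related transcripts was not tested. Arrays give no read depth, and their number limits the precision.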

Additional observations from a re-analysis of the deposited data

Results flagged for a closer look

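In 4 caspases the IL-26 difference had opposite signs at 24 and 6 h, with 1 array per group and the difference between the times not tested. The difference at 24 h less that at 6 h was -0.24 for Casp1, -0.35 for Casp4, -0.13 for Casp8 and -0.14 for Casp9 on the log2 scale. The raw spots of Casp4 and Casp8 were lower with IL-26 at 6 h and at 24 h, so their opposite signs come with the normalisation. For Casp1 the time difference also had opposite signs with IL-26 and with vehicle, the value with IL-26 less that with vehicle being -0.24, which is the same contrast of the 4 arrays and was not tested either. Over all detected genes, 52.8% had opposite signs for IL-26 at the 2 times and 28.3% for time under the 2 treatments.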

How the results depend on the processing

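The Casp4, Casp12, Casp2 and Casp8 calls for time held under every alternative with a test except subtraction of the local background, and no caspase passed for IL-26 under any. With the local background subtracted, 0 genes were higher and 0 lower for time (limma), with 1422 at an unadjusted p under 0.05, so that 0 caspases were higher and 0 lower. The counts for IL-26 were then 732 higher and 12 lower, against 31 and 59 in the reported fit, and signs turned for the time effect of Casp9 (-0.00083) and the IL-26 effects of Casp2 (-0.40), Casp6 (-0.51) and Casp9 (-0.34), while those of Casp1, Casp4, Casp12 and Casp8 grew to 0.77, -0.53, -0.64 and -0.78. With median scaling the IL-26 effect of Casp2 turned to -0.022 and 109 genes were higher with IL-26. Genes higher with IL-26 numbered 15 in the authors' processed values, 2 over all genes, 0 above the median signal and 0 without a variance trend. Genes lower with IL-26 numbered 2 over all genes, 16 above the median signal, 0 without a variance trend (709 at an unadjusted p under 0.05) and 37 without spots beside bright ones. Without the variance trend 1760 genes were higher and 1689 lower for time. The inflammatory minus apoptotic median for time was, with IL-26 and with vehicle in turn, 0.25 and 0.21 at an offset of 200, 0.67 and 0.56 at an offset of 10, 0.20 and 1.27 with the local background and 0.72 and 0.59 in the authors' values. With the local background that for IL-26 was -0.16 at 6 h and 0.043 at 24 h. The cause was not tested. Leaving out an array leaves no residual degree of freedom, so those values, 1.28 to 1.63 for Casp4, carry no test. The reported model, with time as a term, already compares IL-26 with vehicle within each time, and no further pairing of arrays is given. Dim spots limit Casp9 and Casp12 most.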
